A study of Homo sapiens with 12 samples.

Results

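Collagen genes were taken as the protein-coding genes of the count table whose symbol has the form COL, number, A, number, which gave 44 of 62069 genes. They were grouped into 11 fibrillar chains, 6 chains of the basement membrane collagen IV, 10 chains of the fibril-associated collagens (FACIT) and 17 others. RNA-seq was done on the human lung fibroblast line IMR90 ER:RAS, whose RAS fusion protein is switched on by 4-hydroxytamoxifen (4OHT), which triggers oncogene-induced senescence (OIS). There were 4 groups of 3 libraries: non-induced cells, induced cells, induced cells with the short hairpin RNA shXPO7_3 and induced cells with a different hairpin, shXPO7_5, both against XPO7, a nuclear transport receptor. All groups carried the ER:RAS fusion and were labelled passage 13 and day 5, after 7 days of growth with new medium on day 4, and induction used 100 nM 4OHT. According to the study, the non-induced and induced cells carried a vector control. Whether replicate libraries stem from different cultures is not labelled, and every p-value therefore reflects library-to-library spread that may be technical only.

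Collagens are proteins of the extracellular matrix built from chains wound into a helix, either of identical chains or of different ones in a fixed proportion. Fibrillar collagens such as types I, III and V give connective tissue its tensile strength, collagen IV forms the network of basement membranes, and FACIT collagens sit on the surface of fibrils. Lung fibroblasts are a main source of the fibrillar chains, and senescent fibroblasts are known for changing the matrix that surrounds them.

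Library totals ran from 28534141 to 60397769 counts. XPO7 stood at 129 to 143 CPM (counts scaled to a common library size by TMM factors) in non-induced libraries, 127 to 144 CPM in induced ones, 26.4 to 28.7 CPM with shXPO7_3 and 50.8 to 54.0 CPM with shXPO7_5. All 7 fibroblast markers examined were present, and their summed level was 7875 to 8294 CPM in non-induced and 6259 to 6680 CPM in induced libraries. The summed level of 3 smooth muscle markers was 49.3 to 54.4 CPM without and 15.7 to 18.4 CPM with induction. KRT5, SFTPC, PECAM1, CDH5 and CD3E, from lists for epithelial, endothelial and immune cells, were at 0 in every library. The lists also held EPCAM, CDH1, VWF, PTPRC and CD68, and 1 epithelial and 1 endothelial gene reached 1 CPM in some library. The epithelial sum was 0.850 to 1.24 CPM in non-induced libraries, 0.545 to 0.673 CPM in induced ones and 0.494 to 0.843 CPM with a hairpin. The endothelial sum was 1.70 to 2.81, 2.90 to 3.50 and 2.87 to 4.17 CPM in the same order. The immune sum stayed within 0.0709 to 0.219 CPM. The part of these markers in the results was not tested, and in bulk RNA fewer cells of a type and less RNA per cell cannot be told apart.

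Of the 44 collagen genes, 35 had enough counts to be tested. The 9 that did not, COL2A1, COL4A3, COL4A4, COL6A5, COL6A6, COL9A1, COL20A1, COL23A1 and COL26A1, reached at most 13 counts in any library, and COL6A5 was at 0 in all of them. COL4A3 and COL4A4, chains of kidney and lung basement membranes, had at most 1 and 2 counts in any library. COL2A1, the chain of cartilage collagen II, had 11 to 13 counts with shXPO7_3. It had 0 to 1 in non-induced, 2 to 6 in induced and 1 to 4 in shXPO7_5 libraries. For shXPO7_3 against non-induced cells, it was called when any 1 non-induced library or shXPO7_3 library B was left out. For induced against non-induced cells, it was called without induced library B. In these fits it passed the filter through its shXPO7_3 counts, where it was highest, so the calls for shXPO7_3 carry no weight. Of all genes, 43.4% to 46.9% were called in these fits. Collagen transcripts were abundant in these cells. They took 3.73% to 4.27% of all counts in non-induced libraries, 24.3% ± 0.876 (SD, n = 3) of which lay on COL1A1.

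Ranked by counts per kilobase of exon and library size (RPKM), the non-induced cells had COL1A1 at 952 RPKM, COL1A2 at 671, COL6A1 at 642, COL6A2 at 558 and COL6A3 at 363. COL12A1, a FACIT chain, at 202 RPKM and COL3A1 at 191 RPKM came next and COL5A2 followed at 86.1 RPKM. COL1A2 and COL6A1, with SDs of 48.1 and 51.8 RPKM, did not differ beyond their spread. In induced cells COL1A1 at 695 RPKM still led, followed by COL6A1 at 604, COL6A2 at 512 and COL6A3 at 503, while COL1A2 at 300 RPKM had moved from the second place to the fifth. COL1A1, at 652 to 774 RPKM in the induced libraries, did not overlap with COL6A1 at 589 to 613 RPKM. COL6A2 and COL6A3, with SDs of 10.3 and 48.0 RPKM, did not differ beyond their spread in induced cells.

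With RAS induction, 24 of the 35 collagen genes changed, 14 upwards and 10 downwards, in edgeR's quasi-likelihood test with Benjamini-Hochberg adjustment at 0.05, where 50.9% of all 15284 genes tested did. Among all genes 24.8% were called higher and 26.1% lower. The libraries of the 2 groups did not overlap for 27 of the 35 collagen genes, against 63.2% of all genes. The median log2 fold change was 0.19 over collagen genes and -0.0068 over all genes. Of the fibrillar chains 8 of 10 tested changed, 3 up and 5 down, of the collagen IV chains 3 of 4, all up, of the FACIT chains 5 of 8, 2 up and 3 down, and of the others 8 of 13, 6 up and 2 down. The plot of fold changes by class shows called genes of both directions in each class except collagen IV, where the 3 called genes were all higher and COL4A2, at -0.01, was not called.

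**Figure D1:**
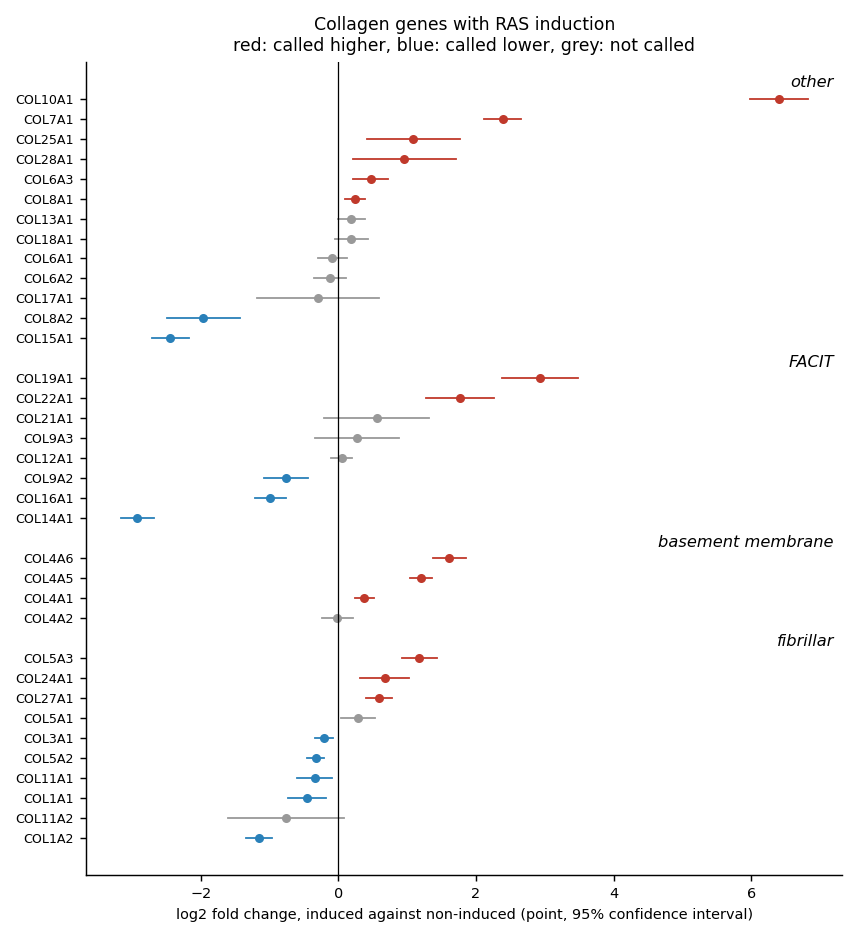
Log2 fold change of the 35 tested collagen genes in induced against non-induced cells, by class, as a point with its 95% confidence interval (x axis, log2; y axis, genes). COL10A1 lies farthest to the right at 6.40 and COL14A1 farthest to the left at -2.92, and 24 genes are coloured as called.

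The chains of collagen I, the main fibril of lung and skin, fell to different extents. COL1A1 (ENSG00000108821; chr17:50183289-50201632, minus strand, GRCh38) was at 10508, 9164 and 8365 CPM in the non-induced libraries T, A and C and at 7601, 6468 and 6402 CPM in the induced libraries T, A and B. Every induced library was below every non-induced one, and COL1A1 fell by 0.45 on the log2 scale (standard error 0.13, adjusted p = 0.0107 by edgeR's quasi-likelihood test). COL1A2 (ENSG00000164692; chr7:94394561-94431232, plus strand) was at 8051, 7407 and 6985 CPM without and at 3585, 3200 and 3270 CPM with induction. Its groups lay far apart, and it fell by 1.16 on the log2 scale (standard error 0.087, edgeR adjusted p = 3.2e-07).

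COL1A1 and COL1A2 encode the chains that assemble into the collagen I helix, so their ratio was followed in each library. Per exon length, there were 1.48, 1.41 and 1.36 COL1A1 counts for each COL1A2 count in non-induced libraries and 2.41, 2.3 and 2.22 in induced ones. The ranges did not overlap, and the log2 ratio rose by 0.71 (exact two-sided permutation test, p = 0.1, the smallest that 3 libraries against 3 allow, here and in every such test). COL1A1 has a GC content of 61.1% and COL1A2 of 41.7%, and with GC content and length corrected for, the difference was 0.92.

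The fibrillar chains that co-assemble with collagen I were mixed. COL3A1, the collagen of elastic tissues, was at 1339, 1336 and 1220 CPM without and at 1179, 1095 and 1098 CPM with induction, and fell by 0.21 (standard error 0.060, edgeR adjusted p = 0.0118). This small change lost its call without the induced library A and without a filter on low counts (adjusted p up to 0.0558). Of the chains of collagen V, which sets fibril diameter, COL5A2 fell by 0.33 (edgeR adjusted p = 0.000319), from 631, 653 and 642 CPM to 518, 510 and 502 CPM. COL5A1 stood higher in every induced library, at 721, 623 and 618 CPM against 589, 542 and 481 CPM, but missed the threshold (log2 difference 0.28, edgeR adjusted p = 0.0536) and was called in 7 of 15 alternative analyses. COL5A3, the less common chain of the same collagen, went from 50.8, 49.5 and 43.1 CPM to 111, 105 and 107 CPM, a rise of 1.17 (standard error 0.12, edgeR adjusted p = 4e-06).

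The collagen V chains thus shifted against each other. The ratio of COL5A1 to COL5A2 per exon length was 0.62, 0.55 and 0.50 in non-induced and 0.93, 0.82 and 0.82 in induced libraries, with no overlap. COL5A2 lies 19149 bases from COL3A1 on chromosome 2, in the opposite orientation and both fell.

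The other fibrillar genes were expressed at lower levels. COL27A1, a cartilage collagen, rose by 0.59 from 30.0, 27.1 and 25.7 CPM to 43.6, 41.2 and 40.0 CPM (edgeR adjusted p = 9.29e-05). COL24A1 rose by 0.67, from 3.99, 5.15 and 5.78 CPM to 8.47, 8.01 and 7.40 CPM (edgeR adjusted p = 0.00449). COL11A1, whose product nucleates fibrils, fell by 0.34 from 37.6, 41.3 and 45.3 CPM to 34.5, 34.9 and 28.6 CPM (edgeR adjusted p = 0.0251), and this call was kept in 10 of 15 alternatives. None of the 3 had overlapping groups. COL11A2, below 1 CPM in every library, gave a log2 difference of -0.76 that did not pass the test (95% confidence interval -1.60 to 0.08).

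**Figure D2:**
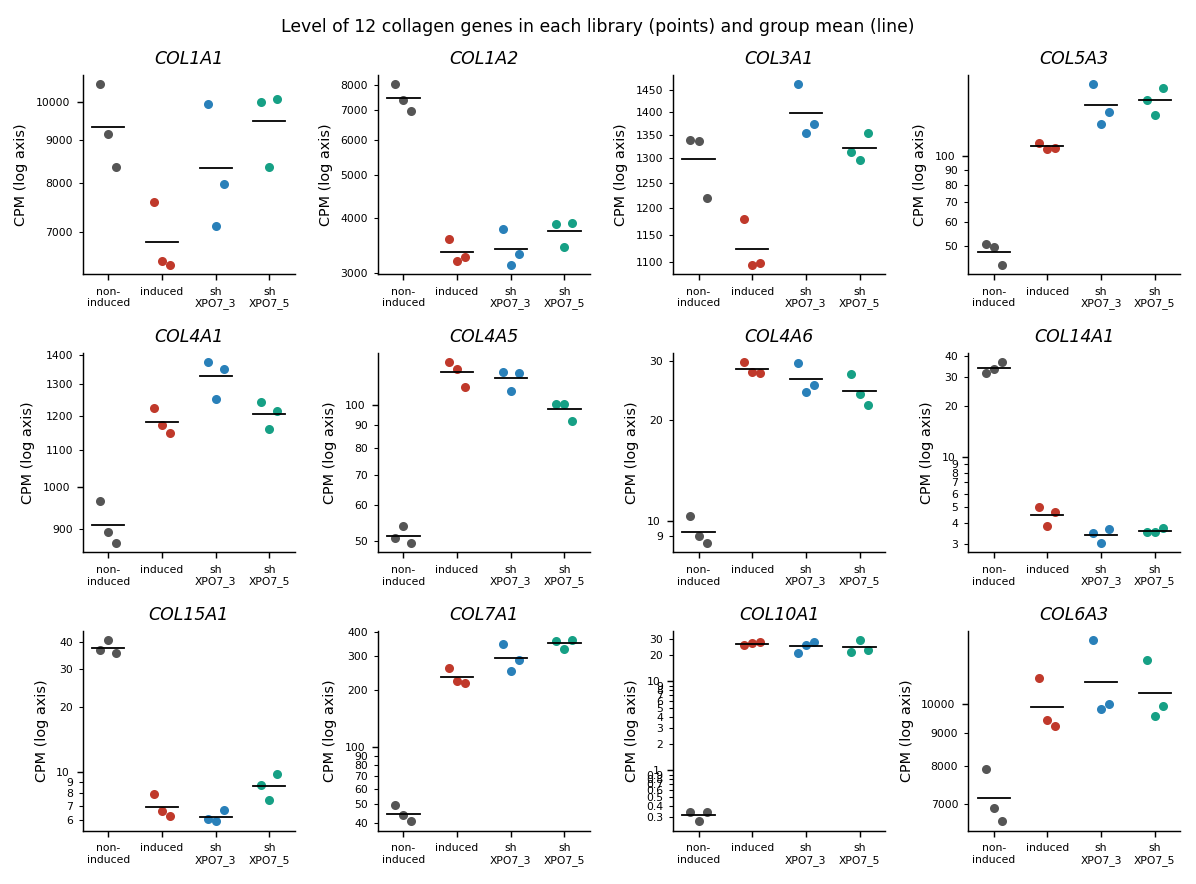
Level of 12 collagen genes in each library (points; line, group mean) in CPM on a log axis, for non-induced cells, induced cells and the induced cells with shXPO7_3 or shXPO7_5. COL1A2, COL14A1 and COL15A1 are higher in every non-induced library than in any other, and there COL10A1 is at 0.267 to 0.340 CPM.

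Collagen IV is encoded by pairs of genes that lie head to head and are transcribed away from a shared stretch. In RefSeq the starts of COL4A1 and COL4A2 on chromosome 13 are 126 bases apart, and those of COL4A6 and COL4A5 on chromosome X 379 bases. The X-linked pair rose together with induction, and the 250 bases before the COL4A5 start are shown for that reason (chrX:108439588-108439837, plus strand, RefSeq on GRCh38.p14), with the letters CCAAT, read on either strand, in capitals.
COL4A5: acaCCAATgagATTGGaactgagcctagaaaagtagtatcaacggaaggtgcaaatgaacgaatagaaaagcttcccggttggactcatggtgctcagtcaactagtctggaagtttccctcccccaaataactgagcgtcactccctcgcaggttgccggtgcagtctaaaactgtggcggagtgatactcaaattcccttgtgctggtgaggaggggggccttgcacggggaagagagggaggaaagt
The letters CCAAT occur at 2 places in this stretch, once on each strand, and no GGGCGG or TATAAA was found in it. CCAAT occurred in 34.6% of all 35093 RefSeq promoter windows, which also cover bases after the start.

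COL4A5 was at 50.7, 54.1 and 49.4 CPM in non-induced and at 124, 120 and 110 CPM in induced libraries. COL4A6 was at 10.3, 8.99 and 8.56 CPM and at 29.8, 27.8 and 27.5 CPM. Both rose without overlap of the groups, COL4A5 by 1.2 (standard error 0.075, adjusted p = 5.85e-08) and COL4A6 by 1.61 (standard error 0.11, adjusted p = 1.33e-07) in edgeR's test. Per exon length there were 3.85, 4.71 and 4.52 COL4A5 counts per COL4A6 count without and 3.27, 3.38 and 3.11 with induction, so the rarer chain gained on the commoner one and the ranges did not overlap.

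COL4A1 and COL4A2 form the common collagen IV of most basement membranes, and they were more abundant than the X-linked pair. COL4A1 rose by 0.38 (edgeR adjusted p = 0.000265), from 966, 893 and 867 CPM to 1223, 1173 and 1149 CPM. COL4A2, at 1166, 1072 and 986 CPM without and 1125, 1039 and 1030 CPM with induction, overlapped between the groups, and its log2 difference was -0.01 (95% confidence interval -0.24 to 0.21, edgeR adjusted p = 0.926). With GC content and length corrected for, this value turned to 0.16 and was called (edgeR adjusted p = 0.00375). The ratio of COL4A1 to COL4A2 per exon length went from 1.09, 1.09 and 1.15 to 1.42, 1.48 and 1.46 (exact permutation test, p = 0.1), and was also higher after the correction, by 0.33 on the log2 scale.

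Among FACIT collagens the largest fall was that of COL14A1 (ENSG00000187955), whose product binds collagen I fibrils. It was at 31.7, 33.5 and 37.0 CPM in non-induced and 4.97, 3.83 and 4.64 CPM in induced libraries, and fell by 2.92 (standard error 0.11, edgeR adjusted p = 7.67e-10). COL16A1 fell by 0.99 (edgeR adjusted p = 5.92e-06), from 255, 252 and 230 CPM to 131, 116 and 126 CPM. COL9A2, a cartilage chain, fell by 0.76 from 3.77, 4.40 and 4.14 CPM to 1.89, 2.73 and 2.64 CPM (edgeR adjusted p = 0.000907). The most abundant FACIT gene did not follow them. COL12A1 was at 2498, 2551 and 2512 CPM without and 2778, 2617 and 2430 CPM with induction, with overlapping groups and a log2 difference of 0.05 (95% confidence interval -0.11 to 0.20).

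The FACIT chains that rose were scarce ones. COL19A1 went from 0.124, 0.267 and 0.142 CPM to 1.53, 1.56 and 1.19 CPM, a rise of 2.93 (standard error 0.25, edgeR adjusted p = 1.12e-06). It had at most 11 counts in a non-induced library and passed the filter through induced ones. Its exons overlap those of LMBRD1 on the opposite strand over 70 bases, and since the strand setting of the counting is not given in the sources used here, reads of the 2 genes cannot be told apart there. COL22A1 rose by 1.77 (standard error 0.23, edgeR adjusted p = 3.46e-05), from 0.340, 0.437 and 0.482 CPM to 1.39, 1.81 and 1.19 CPM. COL9A3 and COL21A1, near or under 1 CPM, did not pass the test.

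The largest rise of any collagen gene was that of COL10A1 (ENSG00000123500; chr6:116118923-116158747, minus strand, GRCh38), the collagen of hypertrophic cartilage. It had 11, 11 and 12 counts in the non-induced libraries and 935, 765 and 1364 in the induced ones, which is 0.340, 0.267 and 0.340 CPM against 25.6, 27.1 and 27.5 CPM. The rise was 6.40 on the log2 scale (standard error 0.19, edgeR adjusted p = 1.16e-10). All induced libraries, with or without a hairpin, were at or above 21.1 CPM. COL7A1 (ENSG00000114270; chr3:48564073-48595267, minus strand), the anchoring fibril that ties basement membrane to the tissue beneath, rose by 2.39 (standard error 0.13, edgeR adjusted p = 1.18e-08), from 49.6, 43.7 and 40.6 CPM to 261, 221 and 216 CPM.

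The stretches before these starts are shown because the genes had the largest rises among collagen genes outside the FACIT class. RefSeq gave 3 starts for COL10A1, and the 250 bases before the one at chr6:116158773-116159022 are given beside those before the COL7A1 start at chr3:48595330-48595579 (both on the minus strand, GRCh38.p14, written 5′ to 3′). Matches on either strand are in capitals. They are to TGANTCA, with N any base, to the TATA box, spelled TATAAA, to the CCAAT box and to the GC box, spelled GGGCGG. No match overlaps another.
COL10A1: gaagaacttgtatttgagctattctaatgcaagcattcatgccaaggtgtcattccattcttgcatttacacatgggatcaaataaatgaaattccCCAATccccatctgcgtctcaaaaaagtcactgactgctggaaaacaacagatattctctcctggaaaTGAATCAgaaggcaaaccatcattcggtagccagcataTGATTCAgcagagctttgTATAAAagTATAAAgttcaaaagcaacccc
COL7A1: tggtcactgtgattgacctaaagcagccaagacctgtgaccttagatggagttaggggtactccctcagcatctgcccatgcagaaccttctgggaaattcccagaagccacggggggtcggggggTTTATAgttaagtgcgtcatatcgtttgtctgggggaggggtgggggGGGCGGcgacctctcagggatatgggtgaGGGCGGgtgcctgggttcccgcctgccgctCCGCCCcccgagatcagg
The COL10A1 stretch held 2 matches to TGANTCA, spelled TGAATCA and TGATTCA, 2 to TATAAA and 1 to CCAAT. Of 44 promoter windows of collagen genes, its window was the only 1 with TGANTCA, which occurred in 7.71% of all windows. The stretches before the other COL10A1 starts held no TGANTCA. Windows also cover bases after the start, which the printed stretches do not. The COL7A1 stretch held 3 matches to GGGCGG, which occurred in 44.9% of all windows and in 54.5% of those of collagen genes, and 1 to TATAAA, which occurred in 11.5% of all windows and in 18.2% of those of collagen genes. RefSeq windows were found for 32 of the 44 genes. A match says that these letters are present, not that a factor binds them.

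Collagen VI makes beaded filaments around cells from 3 chains, and the 3 genes did not move alike. COL6A3 rose by 0.47 (standard error 0.12, edgeR adjusted p = 0.00483), from 7925, 6908 and 6575 CPM to 10956, 9420 and 9241 CPM. COL6A1 was at 3641, 3535 and 3118 CPM without and 3277, 3260 and 3148 CPM with induction, and COL6A2 at 3204, 3101 and 2703 CPM and 2808, 2774 and 2699 CPM. Both overlapped between the groups, with log2 differences of -0.09 (95% confidence interval -0.30 to 0.12) and -0.12 (-0.35 to 0.11). COL6A1 and COL6A2 are neighbours on chromosome 21, transcribed in the same direction with 93046 bases between them, while COL6A3 is on chromosome 2.

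The ratio of COL6A1 to COL6A2 per exon length was 1.15 ± 0.00890 (SD, n = 3) in non-induced and 1.18 ± 0.00476 in induced libraries, a log2 difference of 0.03 without overlap (exact permutation test, p = 0.1). That of COL6A3 to COL6A1 rose from 0.59, 0.53 and 0.57 to 0.91, 0.79 and 0.80, without overlap. COL6A3 became the collagen gene with the most counts, at 28.7% ± 0.786 (SD, n = 3) of all collagen counts in induced libraries against 18.6% ± 0.491 in non-induced ones.

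**Figure D3:**
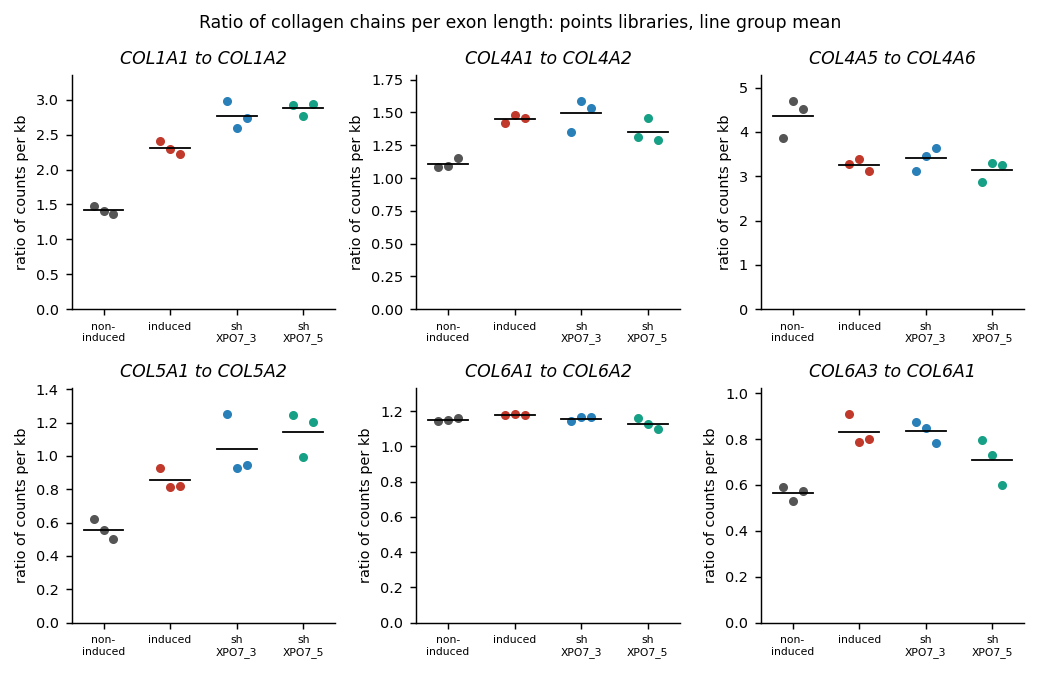
Ratio of the counts per kilobase of exon of collagen chains in each library (points; line, group mean), for 6 chain pairs; the axes start at 0 and the knockdown groups are induced too. COL1A1 to COL1A2 goes from 1.36 to 1.48 in non-induced libraries to 2.22 to 2.41 in induced ones, while COL6A1 to COL6A2 stays between 1.1 and 1.18 in all 12 libraries.

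COL15A1 (ENSG00000204291; chr9:98943179-99070792, plus strand), a proteoglycan collagen next to basement membranes, fell by 2.44 (standard error 0.12, edgeR adjusted p = 8.3e-09), from 36.5, 40.8 and 35.5 CPM to 7.95, 6.59 and 6.25 CPM. COL18A1, its closest relative and the source of endostatin, was at 234, 230 and 200 CPM without and 260, 247 and 248 CPM with induction and was not called (log2 difference 0.19, edgeR adjusted p = 0.175). Correcting for GC content and length raised it to 0.33, which was called. COL18A1 shares 1401 exon bases with SLC19A1 on the opposite strand, so its value is uncertain in the same way as that of COL19A1.

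The chains of the network collagen VIII also diverged. COL8A2 fell by 1.96 (standard error 0.24, edgeR adjusted p = 2.62e-05), from 3.77, 3.64 and 3.66 CPM to 0.956, 0.709 and 1.11 CPM. COL8A1 rose slightly, by 0.24 (edgeR adjusted p = 0.00819), from 146, 144 and 151 CPM to 174, 175 and 173 CPM and was called in 14 of 15 alternatives. The other called genes of this class were scarce. COL25A1, a transmembrane collagen, was at 0.154, 0.170 and 0.227 CPM without and 0.437, 0.496 and 0.282 CPM with induction. It rose by 1.09 (edgeR adjusted p = 0.0114, called in 9 of the 12 alternatives that tested it). With 5 to 8 counts in non-induced and 14 to 16 in induced libraries, it passed the filter mainly through induced ones, so this call carries little weight. COL28A1 rose by 0.96 from 0.278, 0.243 and 0.283 CPM to 0.383, 0.709 and 0.504 CPM (edgeR adjusted p = 0.0354, called in 4 of the 14 alternatives that tested it). COL13A1 and COL17A1, both transmembrane, did not pass the test.

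Scaling by upper-quartile factors moved the median after induction to -0.10 for all genes and to 0.09 for collagen genes. Then 22 collagen genes were called, where 49.1% of all genes were.

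In counts, the balance of the classes changed. Collagen genes took 4.27%, 3.99% and 3.73% of all counts in non-induced and 3.65%, 3.30% and 3.26% in induced libraries. The groups did not overlap, and the share fell by 0.594 percentage points (exact permutation test, p = 0.1). The fibrillar class went from 2.02% ± 0.154 to 1.25% ± 0.0933 (SD, n = 3), the class of others from 1.47% ± 0.108 to 1.64% ± 0.0984, and collagen IV from 0.213% ± 0.0121 to 0.237% ± 0.00857, each without overlap. FACIT genes, with 0.293% ± 0.00529 and 0.271% ± 0.0162, overlapped between the groups. Without COL1A1, COL1A2 and COL3A1 the share of the remaining collagen genes was 2.11% ± 0.121 in non-induced and 2.28% ± 0.129 in induced libraries, which overlapped, so the lower total lay on these 3 genes.

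**Figure D4:**
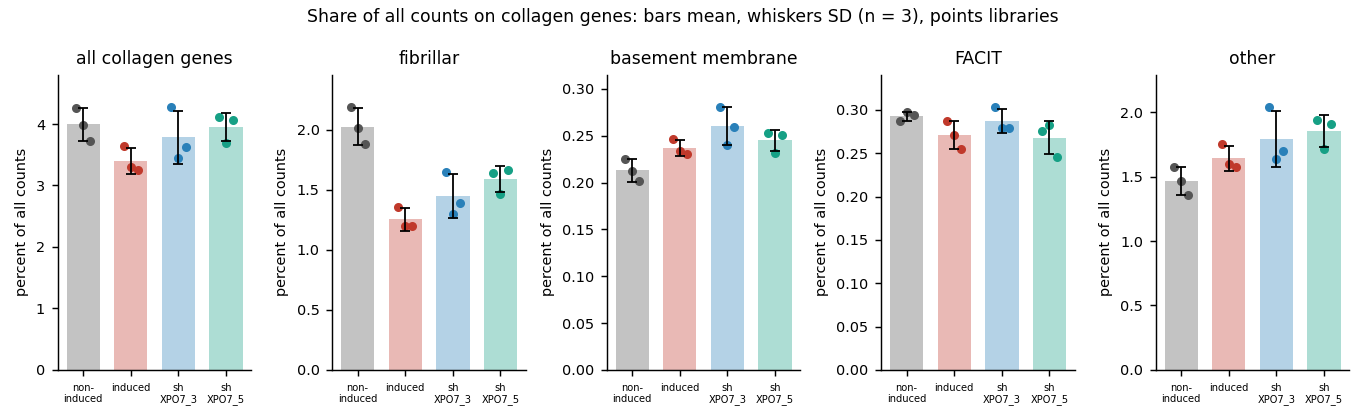
Percent of all counts on collagen genes and on each class (bars, mean; whiskers, SD, n = 3; points, libraries; axes from 0; the knockdown groups are induced too). The fibrillar share lies between 1.88% and 2.18% in non-induced libraries and between 1.2% and 1.36% in induced ones.

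Collagen chains are modified, folded, trimmed, cross-linked and broken down by other proteins, and a list of 48 such genes was examined, of which 45 were tested. With induction 35 of them changed by edgeR's test, 20 up and 15 down, where 50.9% of all genes changed. All 3 tested collagenases, which cut the collagen helix, rose. MMP1 rose by 2.32, from 925, 883 and 873 CPM to 4271, 4427 and 4648 CPM. MMP14, a membrane-bound collagenase, rose by 1.14 and MMP8, at 2.16, 2.02 and 1.84 CPM in induced libraries, by 2.84. The lysyl oxidases, which cross-link collagen chains, went the other way. LOX fell by 1.04, from 624, 658 and 717 CPM to 333, 327 and 313 CPM, and LOXL1 by 1.75, from 150, 154 and 134 CPM to 45.4, 43.0 and 41.3 CPM. LOXL2 and LOXL3 also fell, by 0.30 and 0.43, and LOXL4 was not called, so 4 of 5 fell and none rose.

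Genes that act on the chains inside the cell changed in both directions. Of 10 genes for prolyl hydroxylation, which stabilises the helix, 5 rose and 3 fell, with P3H1 up by 0.61, P4HA2 up by 0.54 and P4HA3 down to a log2 fold change of -0.68. The lysyl hydroxylases PLOD2 and PLOD1 rose by 0.99 and 0.60, and COLGALT2, a collagen galactosyltransferase, fell by 1.51. Of 8 genes for folding and export 3 rose, FKBP14 among them by 0.95, and CREB3L1, a transcription factor of collagen production, fell by 0.97. SERPINH1, the collagen chaperone HSP47, was not called (log2 difference -0.21, edgeR adjusted p = 0.0574).

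Outside the cell, the propeptide-cutting enzyme ADAMTS3 rose by 1.83 and ADAMTS14 by 0.94 while ADAMTS2 fell by 0.96, and the procollagen C-proteinase enhancer PCOLCE2 fell by 2.26. Among collagen receptors, the integrin chains ITGA2 and ITGA1 rose by 1.63 and 1.62, ITGA10 fell by 1.19 and the receptor kinase DDR2 fell by 0.34. DDR2 kept its call in 9 of 15 alternatives.

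The knockdowns were compared with induced cells to ask whether XPO7 loss alters the collagen genes of cells in OIS. By edgeR's quasi-likelihood test no collagen gene was called with either hairpin. With shXPO7_3 0.124% of all genes tested were called and with shXPO7_5 0.589%. At an unadjusted p under 0.05 there were 9 collagen genes with shXPO7_3, 7 higher and 2 lower, and 15 with shXPO7_5, 11 higher and 4 lower, where 6.41% and 21.6% of all genes passed that limit. DESeq2 called 2 of the 33 collagen genes to which it gave an adjusted p with shXPO7_3 and 7 of 30 with shXPO7_5, where it called 0.657% and 3.46% of all such genes. The libraries of the groups did not overlap for 6 and 15 of the 35 genes, against 14.6% and 26.8% of all genes. The median log2 difference of collagen genes was 0.01 with shXPO7_3 and 0.13 with shXPO7_5.

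Before single genes are described, a property of the libraries has to be set beside them. Across genes, the log2 ratio to the mean of induced libraries rose with GC content in the shXPO7_5 libraries T and B (Spearman correlation across genes 0.60 and 0.77) and in the shXPO7_3 library T (0.57), but not in shXPO7_5 library A (0.11) or shXPO7_3 libraries A and B (-0.33 and -0.25). In libraries without a hairpin this correlation ran from -0.20 in induced library A to 0.31 in induced library B, with 0.30 in non-induced library T. Collagen genes have a median GC content of 55.4%, against 47.9% for all genes. Over the 35 collagen genes, the difference made by shXPO7_5 correlated with GC content at 0.66, and over all 14864 genes with a GC value at 0.68. Once GC content and length were corrected for, it was 0.26 over collagen genes, a fall that the correction makes by design. The correction is fitted without the groups, so a knockdown effect that goes with GC content would be removed too. What share of the differences GC content accounts for was not tested, so for some collagen genes values with the correction are given beside those without it.

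The collagen gene nearest to the threshold was COL7A1. With shXPO7_5 it was at 358, 328 and 365 CPM and with shXPO7_3 at 348, 251 and 286 CPM, against 261, 221 and 216 CPM in induced cells. All shXPO7_5 libraries were above the induced ones, and the log2 difference was 0.59 (standard error 0.12, edgeR adjusted p = 0.050, just missing 0.05). It was called in 8 of 15 alternatives. The correction brought the difference to 0.34, with an edgeR adjusted p of 0.0413. With shXPO7_3 the groups overlapped and the difference was 0.34 (edgeR adjusted p = 0.525).

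Several fibrillar chains stood higher in knockdown libraries without passing the test. COL1A1 was at 10003, 8377 and 10074 CPM with shXPO7_5 and at 9937, 7130 and 7982 CPM with shXPO7_3. The difference from induced cells was 0.48 (95% confidence interval 0.19 to 0.76, edgeR adjusted p = 0.11) and 0.29 (0.01 to 0.57, edgeR adjusted p = 0.742), and 0.25 and 0.24 after the correction. COL3A1 was at 1313, 1297 and 1355 CPM with shXPO7_5 and at 1466, 1354 and 1373 CPM with shXPO7_3. All 6 of these libraries were above the induced ones, with differences of 0.23 (edgeR adjusted p = 0.0975) and 0.31 (edgeR adjusted p = 0.0805).

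COL5A3 behaved alike with both hairpins. It was at 154, 138 and 169 CPM with shXPO7_5 and 175, 128 and 141 CPM with shXPO7_3, above the 105 to 111 CPM of induced cells in every library. The differences were 0.51 (edgeR adjusted p = 0.0671) and 0.46 (edgeR adjusted p = 0.229). After the correction they were 0.24 and 0.41, and both were then called. COL5A1 gave 0.44 and 0.26 and COL1A2 0.16 and 0.02 for shXPO7_5 and shXPO7_3, none of them called.

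Corrected for GC content and length, 3 collagen genes were called with shXPO7_3, COL3A1, COL5A3 and COL13A1, all higher, where 2.32% of all genes were called. With shXPO7_5 there were 5, COL5A3 and COL7A1 higher and COL4A5, COL4A6 and COL25A1 lower, where 2.99% of all genes were called. The X-linked collagen IV pair was at 100, 101 and 92.2 CPM for COL4A5 and 27.4, 23.8 and 22.1 CPM for COL4A6 with shXPO7_5, below every induced library. Their differences were -0.27 (edgeR adjusted p = 0.108) and -0.22 (edgeR adjusted p = 0.245), and -0.35 and -0.36 after the correction. COL25A1 was at 0.101, 0.151 and 0.109 CPM, with a difference of -1.68 (standard error 0.34, edgeR adjusted p = 0.050), from at most 18 counts in any library. Induced libraries, where it was higher, were those that mainly carried it past the filter.

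The count for shXPO7_5 depended on 1 library. Without its library A, 12 of 36 collagen genes tested were called in place of 0, where 23% of all genes were called, whereas the count stayed at 0 without any other single library of the groups compared. Of the genes that changed most with induction, COL10A1 at 21.1, 25.6 and 28.0 CPM with shXPO7_3 and 21.7, 29.3 and 22.4 CPM with shXPO7_5 overlapped with induced cells (log2 differences -0.10 and -0.13). COL14A1 stood lower still, at 3.46, 3.02 and 3.66 CPM and 3.50, 3.53 and 3.74 CPM, without overlap with induced cells and without a call (-0.41 and -0.32). COL15A1 was at 6.09, 5.92 and 6.67 CPM and 8.69, 7.43 and 9.86 CPM. Both its ranges overlapped the induced one.

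**Figure D5:**
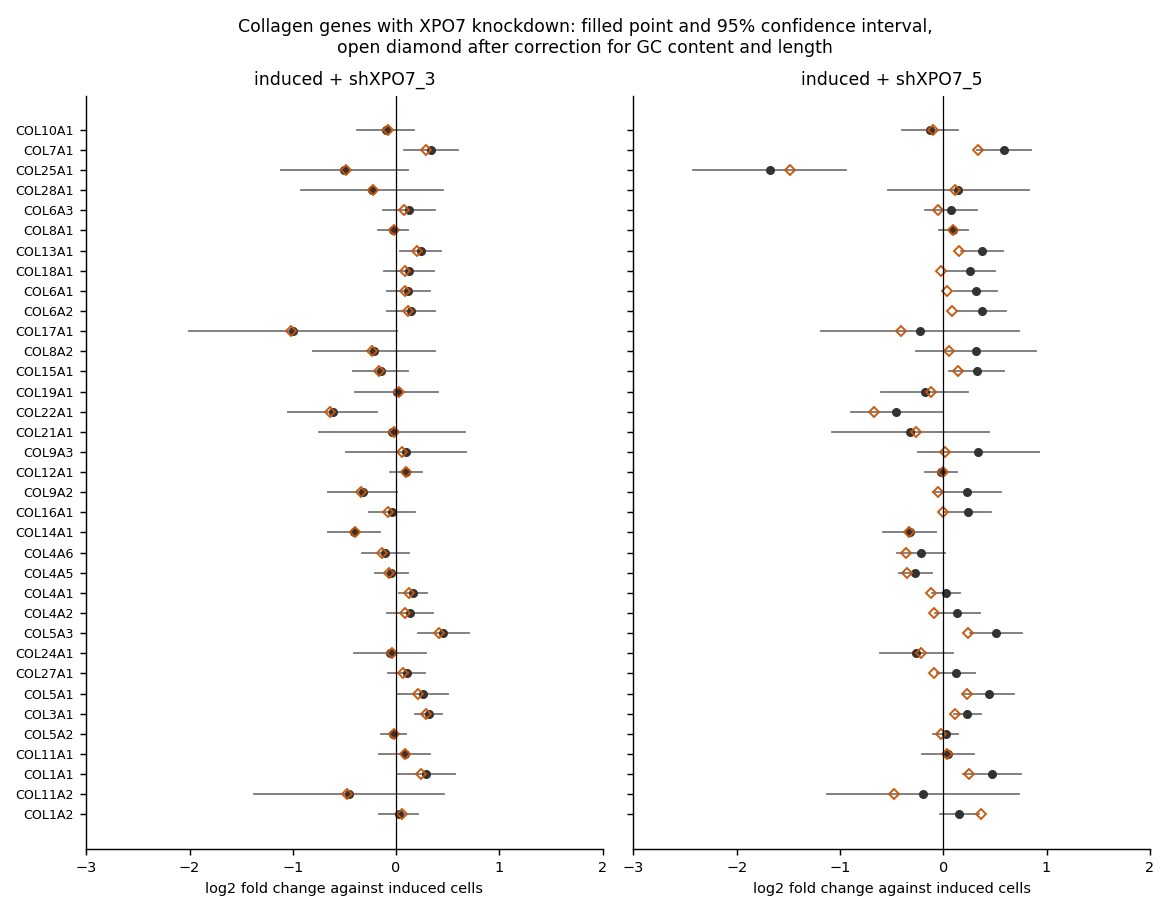
Log2 fold change of the 35 tested collagen genes against induced cells with shXPO7_3 (left) and shXPO7_5 (right), as a filled point with its 95% confidence interval and, as an open diamond, with GC content and length corrected for. With shXPO7_5, COL7A1 moves from 0.59 to 0.34 and COL5A3 from 0.51 to 0.24.

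The share of counts on collagen genes was 4.27%, 3.45% and 3.63% with shXPO7_3, overlapping the induced libraries (exact permutation test, p = 0.3), and 4.11%, 3.69% and 4.06% with shXPO7_5, above all of them (p = 0.1 in the same exact test). The fibrillar class took 1.45% ± 0.184 and 1.59% ± 0.107 (SD, n = 3), against 1.25% ± 0.0933 in induced cells. Per exon length the ratio of COL1A1 to COL1A2 was 2.99, 2.59 and 2.73 with shXPO7_3 and 2.93, 2.77 and 2.94 with shXPO7_5. Both ranges were above the induced one, with log2 differences of 0.26 and 0.32 (exact permutation test, p = 0.1 each). With GC content and length corrected for, the differences were 0.19 and -0.11, so the direction for shXPO7_5 was not kept.

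The hairpins were also compared with each other. No collagen gene was called between shXPO7_5 and shXPO7_3 by edgeR's quasi-likelihood test, where 0.0131% of all genes were. DESeq2 called 0 of the 30 collagen genes to which it gave an adjusted p, where it called 0.206% of all such genes. In edgeR's test 6 collagen genes passed an unadjusted p under 0.05, against 11.9% of all genes. The libraries did not overlap for 6 collagen genes, against 9.71% of all genes. COL15A1, 0.47 higher with shXPO7_5 (95% confidence interval 0.20 to 0.74), and COL25A1, 1.18 lower (-1.94 to -0.41), were among them. For COL1A1 the interval of the difference ran from -0.10 to 0.46.

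Of the 45 tested genes of the collagen pathway list, edgeR called 2 with shXPO7_5 and 0 with shXPO7_3, where it called 0.589% and 0.124% of all genes. ADAMTS14 was at 8.25, 8.21 and 8.14 CPM against 5.55, 4.57 and 4.38 CPM in induced cells and rose by 0.76 (edgeR adjusted p = 0.0164). ITGA11, a collagen-binding integrin chain of fibroblasts, rose by 0.60 from 121, 109 and 113 CPM to 179, 155 and 185 CPM (edgeR adjusted p = 0.0265). Each was called in 9 of 15 alternatives. The values in this paragraph are not corrected for GC content and length. With shXPO7_3, ITGA11 was at 175, 142 and 152 CPM, also above every induced library, and ADAMTS14 at 6.64, 5.16 and 5.78 CPM, which overlapped the induced range. At an unadjusted p under 0.05 there were 7 of the 45 tested genes of the list with shXPO7_3 and 23 with shXPO7_5, where 6.41% and 21.6% of all genes passed.

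Against non-induced cells, 24 collagen genes were called with shXPO7_3, 15 higher and 9 lower, and 23 with shXPO7_5, 15 higher and 8 lower, where 50.6% and 52.3% of all genes were called. Of all genes 24.5% were higher and 26.2% lower with shXPO7_3, and 25.3% and 27% with shXPO7_5. The libraries did not overlap for 29 and 23 collagen genes, against 55.4% and 53.9% of all genes. These comparisons share the non-induced libraries with that of induced cells. With shXPO7_3 and shXPO7_5, in this order, COL1A2 gave log2 fold changes of -1.13 and -1.0, COL14A1 of -3.33 and -3.24, COL10A1 of 6.30 and 6.27 and COL7A1 of 2.73 and 2.97, all called. COL1A1 gave -0.16 (95% confidence interval -0.44 to 0.12) with shXPO7_3 and 0.02 (-0.26 to 0.30) with shXPO7_5, and COL3A1 0.11 (-0.02 to 0.24) and 0.03 (-0.10 to 0.16). Neither gene was called in either comparison, while COL5A1 rose by 0.54 and 0.73 and COL13A1 by 0.43 and 0.56. In the comparison of shXPO7_3, COL3A1 was called with the correction for GC content and length, alone or with a replicate block. There COL1A1 was called with a replicate block alone and without shXPO7_3 library T. In that of shXPO7_5, no alternative called either gene.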

How the data were processed

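The 12 RNA-seq libraries of the IMR90 ER:RAS line formed 4 groups of 3. The counts per gene were deposited by the authors as whole numbers without normalization. Tools listed in the processing notes of the submitters were featureCounts 1.18.0, TopHat2 2.0.11 and CASAVA 1.8.4, with the build hg19. The strand setting is not given in the sources used here. Spike-in entries, 92 in all and at 0 throughout, were left out.

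Genes passing filterByExpr were tested with edgeR 4.0.16 (R 4.3.3, limma 3.58.1), using TMM factors, 1 quasi-likelihood fit over all groups, Benjamini-Hochberg adjustment over all genes tested and a threshold of 0.05. Lengths, GC content and coordinates came from GENCODE on GRCh38 by Ensembl ID, so lengths may differ from those counted. The correction for GC content and length fitted splines with 5 degrees of freedom per library. It had values for 97.3% of the genes tested. Shares and chain ratios were compared by exact permutation tests. Alternatives were other scaling factors and filters, a replicate block, the correction, DESeq2 1.42.0, a fit to only the groups compared, a fold threshold and leaving out each library. The correction of chain ratios was added after seeing the data.

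The collagen genes, classes and lists were chosen with earlier results of these data known. Genes given by library were 11 abundant chains, up to 4 called genes per class each way with the largest changes after induction, any called in a knockdown comparison and, of the pathway list, up to 2 per role each way. COL8A1, COL13A1, COL18A1, collagen genes that were not called, MMP14, LOXL2, LOXL3, LOXL4, SERPINH1 and the printed promoter stretches fall outside that rule and were chosen after their values were seen. Library pairs of 1 group differed by more than sampling noise. In simulated data for induction, with 14871 genes tested, changes of 0.5 on the log2 scale were called for 28.4% of changed genes and changes of 1 for 97.0%. For shXPO7_5 (14812 genes) these shares were 38.8% and 100%. Whether such shares hold for the real libraries, where 50.9% of all genes tested were called after induction, was not tested.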

Additional observations from a re-analysis of the deposited data

How the results depend on the processing

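The counts of collagen genes called after induction stayed between 21 and 28 over the alternatives, apart from 12 with a log2 fold change of at least 1. Fold threshold aside, the share of all genes called ran from 24.6% without a filter to 63.5% with GC content and length corrected for. With the fold threshold, 11 genes of the pathway list and 2573 of all 15284 genes tested were called after induction. Against non-induced cells, 15 collagen genes were called for shXPO7_3 and 11 for shXPO7_5 with that threshold. Of all 15284 genes tested, 2607 and 2710 were. Knockdown counts were less stable. For shXPO7_3 against induced cells the count of 0 became 3 with the correction for GC content and length and 2 by DESeq2. For shXPO7_5 it became 2 with RLE factors, 5 without a filter, 1 when genes needed 1 CPM in 6 or more libraries, 5 with the correction, 7 by DESeq2 and 0 to 12 when 1 library was left out. Of all genes, 0.831%, 0.685%, 1.08%, 2.99%, 3.46% and, without library A, 23% were called under these settings. The cause was not tested. COL4A2 after induction turned from -0.01 to 0.164 with the correction. Without COL1A1, COL1A2 and COL3A1 the share of counts moved by 0.177 percentage points after induction and by 0.244 with shXPO7_5. With the correction the log2 ratio of COL1A1 to COL1A2 was 0.92 after induction and -0.11 with shXPO7_5, and that of COL4A1 to COL4A2 was 0.33 after induction. Counting COL7A1, COL15A1 and COL18A1 with collagen IV gave 5 called genes in place of 3.

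Replicate letters are shared between groups, but same-lettered libraries did not deviate together throughout (correlations from -0.234 to 0.589), so they share only a letter. With a replicate block 23 collagen genes were called after induction and 4 with shXPO7_5, where 7987 and 149 of all 15284 genes tested were called. With the block and the correction together 6 were called for shXPO7_3 and 8 for shXPO7_5, where 2.45% and 5.95% of all genes were called, and COL4A2 after induction was at 0.165.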
